A study of Mus musculus with 12 samples.

Results

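Plasmablasts that lacked the transcription factor c-Myb were compared with germinal centre (GC) B cells that lacked it. The comparison held 2 pools of plasmablasts and 2 pools of GC B cells, 4 of the 12 RNA sequencing libraries of the series, chosen by genotype and sorted cell type alone. All were polyA RNA libraries of sorted C57BL/6 mouse cells, and all 4 came from mice of genotype Myb fl/fl CD23-cre T/+, in which cre is driven by the promoter of a surface protein of mature B cells. The plasmablasts were taken on day 5 after a boost with NP-KLH in PBS, from pools of 5 and 4 mice. The GC B cells were taken on day 12 after immunisation with NP-KLH in alum, from pools of 2 and 3 mice. The control plasmablasts (6 and 7 mice) and control GC B cells (3 and 2 mice) were Myb fl/fl with no cre, so they were used only to ask whether the same transition differed with Myb present, and the presence of cre cannot be told apart there from the loss of Myb. Plasmablast and GC pools were not made on shared dates, so date, time after immunisation and boost cannot be told apart from cell type. Each library is a pool of mice, so the spread among single mice is not seen and p-values measure the spread between 2 pools a group.

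A GC B cell divides rapidly while it mutates its antibody genes and competes for antigen and T cell help. A plasmablast is the dividing, antibody-secreting cell that such a response, or reactivated memory, gives rise to. The change of state rests on opposed circuits: Bcl6, Pax5 and Bach2 hold the B cell state, and Irf4, Blimp-1 (gene Prdm1) and Xbp1 install the secretory one. c-Myb is best known for its roles in haematopoietic progenitors, and in B cells it has been linked to the positioning of plasma cells.

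The libraries held 19027311 and 22259138 counts (plasmablasts) and 9963612 and 9275557 counts (GC B cells). Immunoglobulin transcripts filled 69.3 ± 0.970% of the knockout plasmablast libraries, against 2.89 ± 0.186% of the knockout GC libraries (SD, n = 2 pools each). Levels are therefore given as CPM, counts scaled to a common library size, after correction by the trimmed mean of M values (TMM), which sets the bulk of genes level between libraries and lets the values of a plasmablast library sum to more than the common size. Without that scaling the log2 folds in this comparison fell by 2.05 (median over genes). A gene with a positive log2 fold smaller than that shift would lie lower in plasmablasts as a share of all reads, as Atf4, Canx, Eif2ak3, Ccnd2, Mcl1, Cd81, Fcrla, Cxcr4, Ezh1, Pdk1, Tcf4 and Cxcr3 did, so every fold given here is relative to the bulk of genes. In bulk RNA, fewer cells of a kind and less RNA per cell cannot be told apart.

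Myb itself, counted over the whole gene, had 3.11 and 3.10 CPM in plasmablasts, against 13.0 and 11.6 CPM in GC B cells, and control pools had 4.13 and 4.64 in plasmablasts and 14.0 and 11.5 in GC B cells. The floxed exons are not named in the labels, so a whole-gene count does not check the deletion. By their labels the knockout plasmablast pools held mice of both sexes (3 males and 2 females, and 1 male and 3 females) and the knockout GC pools females only (2 and 3). Knockout GC pool 1 nevertheless had 67.2 CPM of the Y-linked gene Ddx3y before scaling, against 0.323 CPM in knockout GC pool 2. The plasmablast pools had 41.6 and 4.85 CPM before scaling. Immunoglobulin fills most of those libraries, so plasmablast values read low on this scale and no order between the cell types is given. Xist, the RNA of the inactive X chromosome, was at 0.526 and 11.9 CPM in plasmablasts, against 297 and 347 CPM in GC B cells, also before scaling. The part of sex in the results was not tested. Counts of genes are therefore also given without that pool. The control GC libraries stood apart in reads of genes without a symbol here, which took 5.10 ± 0.624% of their counts, against 0.992 ± 0.0829% in knockout GC libraries (SD, n = 2 pools each). In both control GC pools most of these counts were of gene ID 100861531. Sdc1, a marker of plasmablasts, and Gcsam, a marker of GC B cells, were each near absent from the other cell type, with values given beside their gene groups. The B cell receptor gene Cd79a was high in all 4 libraries.

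Of 13131 tested genes, edgeR called 3203 higher (24.4%) and 3567 lower (27.2%) in knockout plasmablasts at an adjusted p under 0.05. On library totals without the scaling it called 884 higher and 10394 lower. A stricter call, which asks for a change of more than 2-fold, gave 1867 higher (14.2%) and 1620 lower (12.3%). Without GC pool 1 these counts were 2896 and 3168, and 1749 and 1493 by the stricter call. The 2 plasmablast pools lay wholly above or below the 2 GC pools for 9701 genes (73.9%), so a gene whose groups do not overlap is the usual case here. The median log2 fold over all tested genes was -0.17, and each list of genes is read against these shares and this median. From here on, the knockout groups did not overlap for a gene given with pool values unless that is said.

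Most tested markers of T cells, myeloid, NK, plasmacytoid dendritic and erythroid cells did not pass. Of 14 tested T cell markers 1 was higher and 3 were lower in plasmablasts (5 lower without plasmablast pool 2, and none higher without plasmablast pool 1 or GC pool 2), and their summed level was 24.1 and 35.6 CPM in plasmablasts, against 180 and 178 CPM in GC B cells, nearly all of it Lck and Cd2. The T cell receptor component Cd3e was at 0 and 0.344 CPM in plasmablasts, against 1.33 and 0.548 CPM in GC B cells. Of 11 myeloid markers 2 were higher in plasmablasts (1 without plasmablast pool 1 or GC pool 2), with sums of 90.6 and 45.1 CPM against 47.5 and 13.1 CPM in GC B cells, and S100a8 and S100a9 did not exceed 0.649 CPM in a plasmablast pool. The myeloid markers called higher made up 18.2% of their list, against 24.4% of all genes. They include Csf1r, with a log2 fold of 2.51 (edgeR adjusted p = 0.0229) that was 1.43 without plasmablast pool 1. Of 9 NK and plasmacytoid dendritic cell markers 3 (33.3%) were higher in plasmablasts, with sums of 426 and 591 CPM, against 193 and 175 CPM in GC B cells. Bst2 had the highest fold of that list (log2 fold 3.45, edgeR adjusted p = 1.97e-05), which was 2.79 without plasmablast pool 2. Siglech had 0 counts in plasmablasts. Of 8 erythroid markers whose symbols the files hold, 2 had counts enough to be tested, neither passed, and their sum did not exceed 0.649 CPM in any of the 4 libraries; the globin gene Hbb-bh1, outside the list, had 0 and 0 CPM in plasmablasts, against 6.49 and 13.6 CPM in GC B cells. Of 14 naive follicular B cell markers 8 were lower (57.1%, against 27.2% of all genes) and 1 was higher in plasmablasts. Their sums were 287 and 284 CPM in plasmablasts, against 1112.5 and 811 CPM in GC B cells. Their median log2 fold was -1.70, but -1.12 without GC pool 1 and -2.19 without GC pool 2. The part of such cells in the results was not tested.

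**Figure D1:**
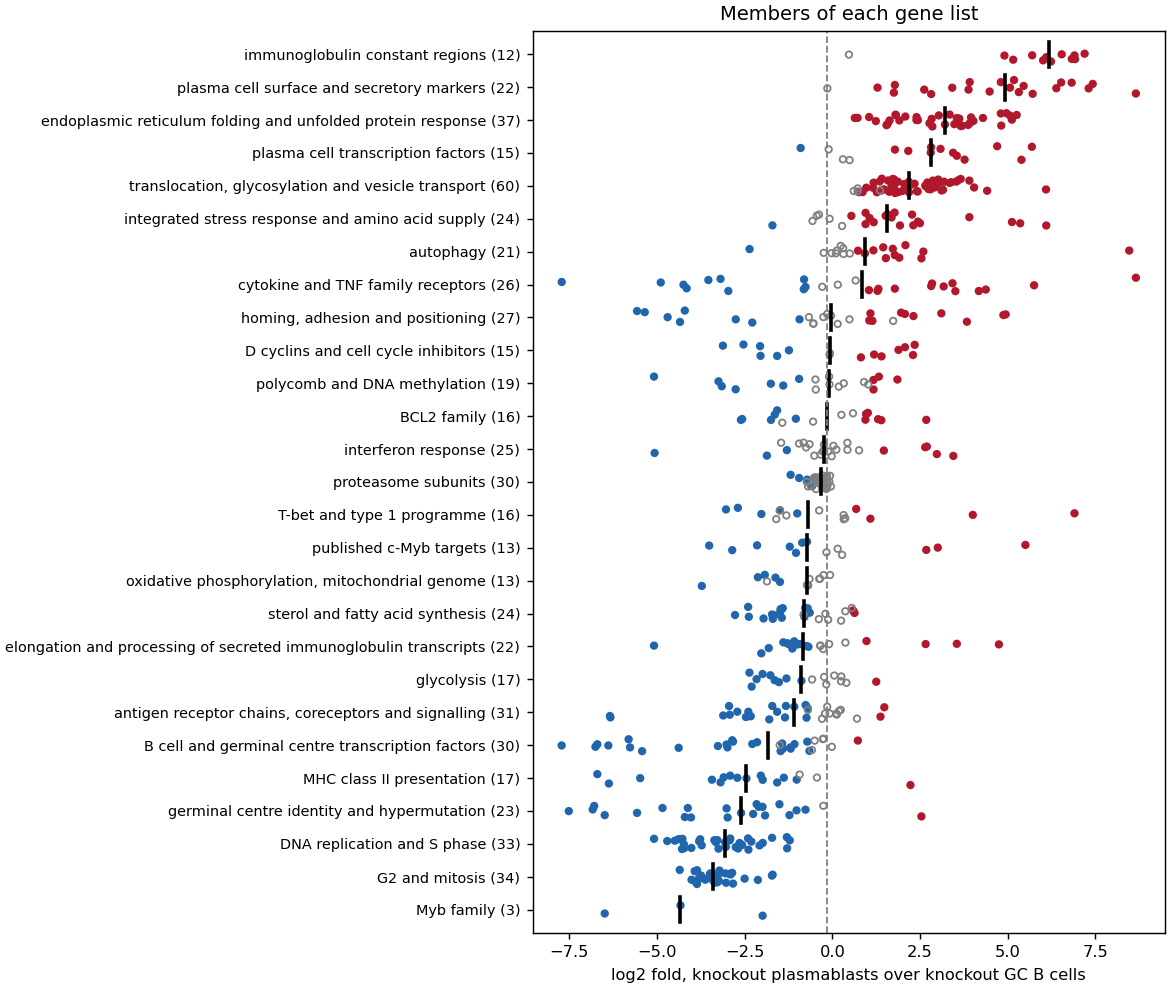
Log2 fold change of each tested member of each gene list, knockout plasmablasts over knockout GC B cells, on the horizontal axis. The lists of markers of other cells are not drawn. Red points are called higher, blue points called lower (edgeR adjusted p under 0.05), and open grey points did not pass. Black bars are list medians, numbers in brackets are members tested, and the dashed line is the median of all 13131 genes (-0.17); constant regions (median 6.16) and secretory markers (4.93) lie at the top, and the S phase (-3.06), G2 and mitosis (-3.39) and Myb family lists at the bottom.

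The transcription factors of the plasma cell state were high in plasmablasts and present at a lower level in GC B cells. Of 15 listed factors 11 were higher and 1 was lower, with a median log2 fold of 2.81. Prdm1 (chr10:44437174-44528558, gene ID 12142), which encodes Blimp-1, the repressor of the B cell programme, had 292 and 209 CPM in plasmablasts, against 21.8 and 14.9 CPM in GC B cells (log2 fold 3.77, SE 0.34, edgeR adjusted p = 3.34e-06). Xbp1 (chr11:5520641-5525993, gene ID 22433), whose spliced product drives the expansion of the secretory apparatus, had 5072 and 5419 CPM in plasmablasts, against 171 and 233 CPM in GC B cells (log2 fold 4.70, SE 0.34, edgeR adjusted p = 8.28e-07). Irf4 (chr13:30749233-30766981, gene ID 16364), needed for plasma cell formation and survival, had 736 and 506 CPM in plasmablasts, against 62.6 and 51.7 CPM in GC B cells (log2 fold 3.44, SE 0.28, edgeR adjusted p = 1.73e-06). Per kilobase of transcript, Xbp1 averaged 2914 CPM in plasmablasts, Irf4 133 and Prdm1 48.7, an order that also held in GC B cells (112, 12.2 and 3.56).

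Bhlha15 (chr5:144190286-144194441, gene ID 17341), which encodes Mist1, a factor of professional secretory cells, had 308 and 299 CPM in plasmablasts, against 5.33 and 6.44 CPM in GC B cells (log2 fold 5.69, SE 0.26, edgeR adjusted p = 1.49e-07). Ell2, the elongation factor that favours the secreted form of the heavy chain transcript, had 821 and 870.3 CPM in plasmablasts, against 74.1 and 70.5 CPM in GC B cells (log2 fold 3.55, SE 0.24, edgeR adjusted p = 5.27e-07). Atf6 and Atf6b, sensors of the endoplasmic reticulum, had log2 folds of 2.81 and 1.78 (edgeR adjusted p = 6.29e-06 and 1.05e-05). Creb3l2, another membrane-bound factor of secretory cells, had a log2 fold of 5.39 (edgeR adjusted p = 8.93e-06), which was 4.76 without plasmablast pool 1. Pou2af1, the B cell coactivator OBF-1, stood at 1533 and 1772 CPM in plasmablasts, against 1436 and 2117 CPM in GC B cells, with overlapping groups (log2 fold -0.10, SE 0.29, edgeR adjusted p = 0.780). Zbtb20 and Zbtb38 did not pass either. The one factor called lower, Ikzf3 (Aiolos), had a log2 fold of -0.90 (edgeR adjusted p = 0.0133) that did not pass without plasmablast pool 2 (log2 fold -0.69, edgeR adjusted p = 0.107).

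The factors that hold the B cell and GC state were lower, several of them to near silence. Of 30 listed factors 23 were lower and 1 was higher, with a median log2 fold of -1.82. Bcl6 (chr16:23965050-23988866, gene ID 12053), the master repressor of the GC, had 2.21 and 1.61 CPM in plasmablasts, against 105 and 108 CPM in GC B cells (log2 fold -5.81, SE 0.39, edgeR adjusted p = 5.27e-07). Pax5 (chr4:44524748-44710694, gene ID 18507), which maintains B cell identity, had 2.34 and 1.95 CPM in plasmablasts, against 217 and 245 CPM in GC B cells (log2 fold -6.75, SE 0.38, edgeR adjusted p = 2.36e-07). Bach2 (chr4:32238413-32586109, gene ID 12014), which restrains Prdm1, had 3.50 and 3.10 CPM in plasmablasts, against 177 and 182 CPM in GC B cells (log2 fold -5.77, SE 0.28, edgeR adjusted p = 1.61e-07). Spib, an Ets factor of B cells, had 2.34 and 3.10 CPM in plasmablasts, against 482 and 668 CPM in GC B cells, the lowest fold of the list (log2 fold -7.72, SE 0.34, edgeR adjusted p = 1.49e-07). In each case 1 to 4 CPM remained in plasmablasts and both GC pools exceeded 100 CPM. Id3, an inhibitor of E proteins, and Ciita, the switch of MHC class II transcription, fell likewise (log2 folds -6.38 and -6.70, edgeR adjusted p = 3.37e-07 and 8.28e-07). Myc, which drives growth and division, had 11.3 and 8.38 CPM in plasmablasts, against 44.3 and 42.6 CPM in GC B cells (log2 fold -2.15, SE 0.26, edgeR adjusted p = 3.10e-05). Mef2c, Foxp1, Relb, Tcf3, Stat6 and Zeb2 did not pass, and Tcf4, the E protein E2-2, was the factor called higher (log2 fold 0.73, edgeR adjusted p = 0.0123; 0.0560 without plasmablast pool 1 and 0.0859 without GC pool 2).

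**Figure D2:**
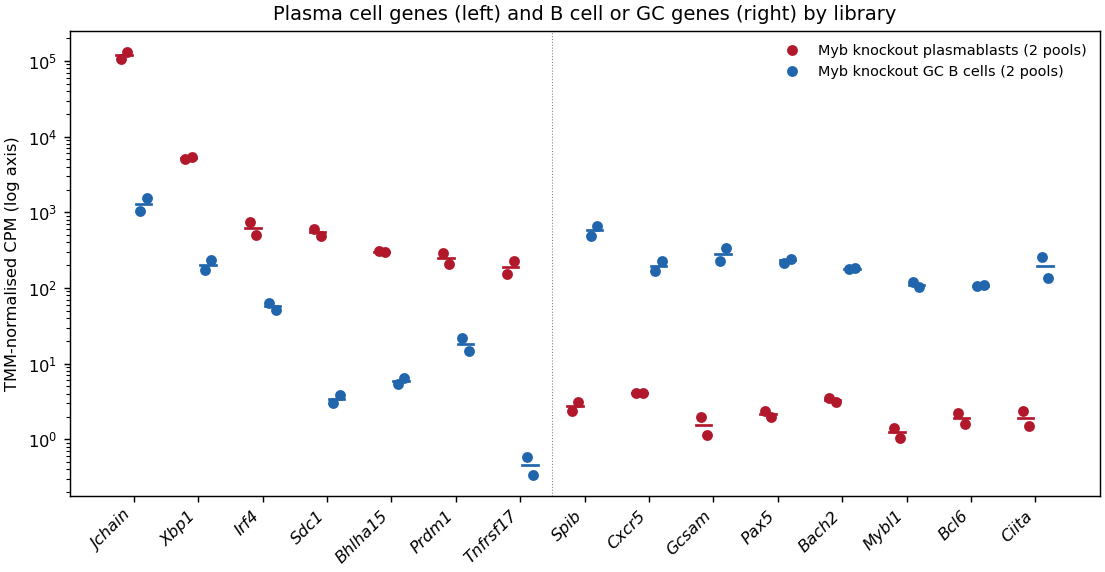
TMM-normalised CPM (log axis) of plasma cell genes (left of the dotted line) and of B cell and GC genes (right of it) in each pool, knockout plasmablasts in red and knockout GC B cells in blue; short bars are means of 2 pools. No gene shown has overlapping groups, and Prdm1 and Irf4 are the plasma cell genes with the narrowest gap between the cell types.

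All 3 Myb family genes were lower in plasmablasts. Mybl1, the family member known for its high level in GC B cells, had 1.43 and 1.03 CPM in plasmablasts, against 119 and 101 CPM in GC B cells (log2 fold -6.49, SE 0.45, edgeR adjusted p = 6.49e-07). Mybl2, a cell cycle gene in most tissues, had 1.82 and 1.72 CPM in plasmablasts, against 35.9 and 35.3 CPM in GC B cells (log2 fold -4.33, SE 0.21, edgeR adjusted p = 1.80e-07). Myb, on the whole-gene counts given above, was the least changed (log2 fold -1.99, SE 0.27, edgeR adjusted p = 8.83e-05), and in the control cells its log2 fold was -1.55. Of 13 published targets of c-Myb tested, 7 were lower and 3 higher in control plasmablasts, with Myb present (median log2 fold -0.61). In knockout plasmablasts 7 were likewise lower and 3 higher (median log2 fold -0.72, 53.8% lower against 27.2% of all genes). The lower ones include Ets1, an Ets factor of lymphocytes (60.2 and 53.0 CPM in plasmablasts, against 403 and 416 CPM in GC B cells; log2 fold -2.85, SE 0.24, edgeR adjusted p = 1.87e-06), Ccnb1 and Myc. Among the higher ones, Kit, the stem cell factor receptor gene, had a log2 fold of 5.50 that was 6.54 without GC pool 1, and Bcl2, the survival gene, had 2.68 that was 4.02 without GC pool 1 and 2.01 without GC pool 2 (edgeR adjusted p = 3.53e-06 and 0.00155).

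Genes of the GC reaction itself were lower almost without exception. Of 23 tested, 21 were lower and 1 was higher (median log2 fold -2.60). Gcsam, a signalling adaptor restricted to GC B cells, had 1.95 and 1.15 CPM in plasmablasts, against 228 and 334 CPM in GC B cells (log2 fold -7.51, SE 0.35, edgeR adjusted p = 1.49e-07). Cxcr5, the receptor that holds B cells in follicles, had 4.15 and 4.13 CPM in plasmablasts, against 167 and 226 CPM in GC B cells (log2 fold -5.57, SE 0.27, edgeR adjusted p = 1.80e-07), and S1pr2, which confines them to the GC, had 17.1 and 13.7 CPM in plasmablasts, against 231 and 337 CPM in GC B cells (log2 fold -4.21, SE 0.27, edgeR adjusted p = 4.40e-07). DNA repair genes of the list fell less than Gcsam, Cxcr5 and S1pr2. Their log2 folds ran from -2.16 for Ung, above the list median, to -4.03 for the exonuclease gene Exo1, below it. The error-prone polymerase gene Polh (-2.60) lay at the median. The gene called higher was Ebi3, a cytokine subunit gene, with 20.0 and 24.7 CPM in plasmablasts, against 3.65 and 4.04 CPM in GC B cells (log2 fold 2.54, SE 0.26, edgeR adjusted p = 9.01e-06). Gpr183, which guides B cells to the follicle edge, did not pass (log2 fold -0.26, SE 0.24, edgeR adjusted p = 0.397).

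Constant region transcripts rose for every tested class but IgD. Of 250 tested immunoglobulin genes 246 were higher (98.4%, against 23.0% of the other genes), with a median log2 fold of 6.18. Ighm, the IgM heavy chain gene, had 740408 and 700287 CPM in plasmablasts, against 6515 and 5403 CPM in GC B cells (log2 fold 6.92, SE 0.43, edgeR adjusted p = 3.72e-07). Igkc, the kappa light chain constant gene, had 317019 and 376228 CPM in plasmablasts, against 3515 and 3947 CPM in GC B cells (log2 fold 6.54, SE 0.49, edgeR adjusted p = 9.66e-07). Jchain, which joins IgM and IgA subunits, had 107667 and 130122 CPM in plasmablasts, against 1051 and 1537 CPM in GC B cells (log2 fold 6.52, SE 0.47, edgeR adjusted p = 7.44e-07). Ighd, which is transcribed by cells that have neither switched nor matured to secretion, had 56.7 and 57.9 CPM in plasmablasts, against 71.2 and 11.2 CPM in GC B cells, with GC pools far apart and spanning the plasmablast pools (log2 fold 0.47, SE 1.11, edgeR adjusted p = 0.741). Segments and constant genes share long stretches of sequence, so counts of single members may be split between them.

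IgM was the leading isotype in both knockout cell types. Of all heavy chain constant counts, Ighm held 80.2% and 72.9% in the plasmablast pools and 73.3% and 69.8% in the GC pools. Ighg1 held 7.46% and 8.41% in plasmablasts, against 5.64% and 10.6% in GC B cells, and Ighg2c 4.37% and 8.53%, against 5.56% and 6.83%. These shares overlapped between the cell types. In the control mice Ighm held 45.9 ± 5.11% and Ighg1 38.6 ± 2.96% of plasmablast counts, against 69.3 ± 0.853% and 17.2 ± 0.399% of GC counts (SD, n = 2 pools each). The difference between knockout and control shares was not tested.

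**Figure D3:**
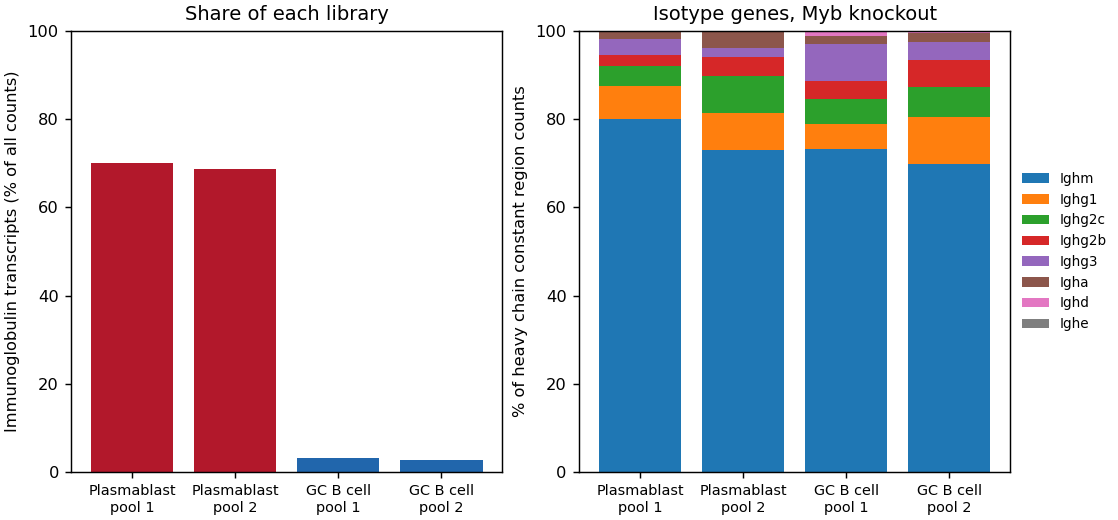
Left, immunoglobulin transcripts as a percent of all counts in each knockout pool; right, the split of heavy chain constant region counts among isotype genes in the same pools. Immunoglobulin fills 70.0% and 68.6% of the plasmablast libraries, against 3.03% and 2.76% of the GC libraries, while Ighm holds about the same large share of heavy chain counts in all 4.

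Surface and secretory genes used to recognise plasma cells were higher in 21 of 22 cases (median log2 fold 4.93). Tnfrsf17, which encodes the survival receptor BCMA, had 152 and 230.4 CPM in plasmablasts, against 0.580 and 0.342 CPM in GC B cells (log2 fold 8.65, SE 0.56, edgeR adjusted p = 4.74e-07). Sdc1, the syndecan (CD138) by which plasma cells are sorted, had 606 and 487 CPM in plasmablasts, against 3.01 and 3.90 CPM in GC B cells (log2 fold 7.31, SE 0.45, edgeR adjusted p = 3.67e-07). Ly6c2 had 439 and 657 CPM in plasmablasts, against 2.32 and 4.11 CPM in GC B cells (log2 fold 7.42, SE 0.41, edgeR adjusted p = 2.27e-07), though reads may be shared with its near copy Ly6c1. Fkbp11, a secretory peptidyl-prolyl isomerase, had 215 and 360.1 CPM in plasmablasts, against 2.03 and 3.08 CPM in GC B cells (log2 fold 6.82, SE 0.47, edgeR adjusted p = 6.09e-07). Slamf7, an adhesion receptor, and Mzb1, a chaperone partner in immunoglobulin assembly, were already high in GC B cells and rose less (log2 folds 2.62 and 3.42, edgeR adjusted p = 3.76e-06 and 4.99e-05). Cd38 was the member that did not pass (log2 fold -0.14, SE 0.35, edgeR adjusted p = 0.750). The level of these 22 genes in GC B cells was a median of 3.29% of the plasmablast level, from 0.241% for Tnfrsf17 to 110% for Cd38.

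The folding machinery of the endoplasmic reticulum was higher as a whole. All 37 tested genes of protein folding and of the unfolded protein response were called higher, 33 of them by more than 2-fold, with a median log2 fold of 3.21. Leaving out 1 pool gave 34 (without plasmablast pool 1) to 37 calls, and 35 without GC pool 1. Hsp90b1 (GRP94), the chaperone of the lumen that assists immunoglobulin folding, had 14749.6 and 18163 CPM in plasmablasts, against 552 and 503 CPM in GC B cells (log2 fold 4.96, SE 0.43, edgeR adjusted p = 2.72e-06). Hspa5 (BiP), which holds unpaired heavy chains, had 5639.9 and 5686 CPM in plasmablasts, against 462 and 507 CPM in GC B cells (log2 fold 3.55, SE 0.33, edgeR adjusted p = 4.59e-06). Pdia4, a disulfide isomerase, had 3619 and 3946 CPM in plasmablasts, against 98.9 and 99.2 CPM in GC B cells (log2 fold 5.25, SE 0.42, edgeR adjusted p = 1.51e-06), the highest fold of the list, and Creld2 1876 and 2598 CPM in plasmablasts, against 61.2 and 72.5 CPM in GC B cells (log2 fold 5.06, SE 0.39, edgeR adjusted p = 1.09e-06). The sensor kinase genes Ern1 (IRE1) and Eif2ak3 (PERK) stood apart. Ern1 had a log2 fold of 5.12 (4.30 without plasmablast pool 1) and Eif2ak3 one of 0.72, near the bottom of the list (edgeR adjusted p = 4.42e-05 and 0.00972). Canx and Uggt1, which run the glycoprotein folding cycle, rose little (log2 folds 1.24 and 1.05, edgeR adjusted p = 0.00174 and 0.0121).

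Some promoters of these genes carry a known element of the unfolded protein response. The endoplasmic reticulum stress response element (ERSE), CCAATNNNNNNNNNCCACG on either strand, was looked for in the 250 bases before each annotated start. It was found for 15 of 9824 tested genes with a promoter entry (0.153%) and for 10 of the 34 such genes of the folding list (29.4%). Of these 15 genes 10 were higher and 3 lower in plasmablasts, the 10 higher ones being those of the folding list. Among all genes higher by more than 2-fold 9 of 1261 held it, and among those lower by more than 2-fold 0 of 1235. A match is a run of letters and not a proven site. The sequences are RefSeq promoters of build GRCm38.p6, printed in the direction of transcription with the element in capitals, for 4 genes of high level or fold. Hsp90b1 carries a copy on each strand.
Hspa5 (chr2:34771840-34772089, plus strand): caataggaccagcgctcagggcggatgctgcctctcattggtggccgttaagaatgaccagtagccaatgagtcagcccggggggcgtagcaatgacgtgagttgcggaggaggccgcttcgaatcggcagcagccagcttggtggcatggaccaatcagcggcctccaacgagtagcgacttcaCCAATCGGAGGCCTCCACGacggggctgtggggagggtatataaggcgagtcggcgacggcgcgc
Hsp90b1 (chr10:86705445-86705694, minus strand): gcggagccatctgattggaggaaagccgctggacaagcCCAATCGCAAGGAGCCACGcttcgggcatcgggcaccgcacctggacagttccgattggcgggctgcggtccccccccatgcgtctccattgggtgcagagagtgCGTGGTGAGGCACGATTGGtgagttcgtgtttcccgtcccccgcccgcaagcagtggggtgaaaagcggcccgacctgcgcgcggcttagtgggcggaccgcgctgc
Pdia6 (chr12:17266339-17266588, plus strand): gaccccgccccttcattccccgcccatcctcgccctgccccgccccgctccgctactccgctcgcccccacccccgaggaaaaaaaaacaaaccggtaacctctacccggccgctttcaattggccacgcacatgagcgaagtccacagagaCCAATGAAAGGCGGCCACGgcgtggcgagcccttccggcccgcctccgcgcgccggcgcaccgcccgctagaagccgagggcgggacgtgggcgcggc
Creld2 (chr15:88819396-88819645, plus strand): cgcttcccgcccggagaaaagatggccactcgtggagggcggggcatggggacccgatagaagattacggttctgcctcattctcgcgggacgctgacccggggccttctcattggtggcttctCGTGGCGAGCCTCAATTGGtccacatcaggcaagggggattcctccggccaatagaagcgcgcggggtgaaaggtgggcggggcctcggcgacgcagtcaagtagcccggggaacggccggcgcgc
The CCAAT part of the element alone is common. CCAAT on either strand, which includes the CCAAT in every ERSE, was found for 79.4% of the folding genes and 41.0% of all tested genes. TGACGTGG, an unfolded protein response element, was found for 2 of the 34 folding genes and 88 of all.

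**Figure D4:**
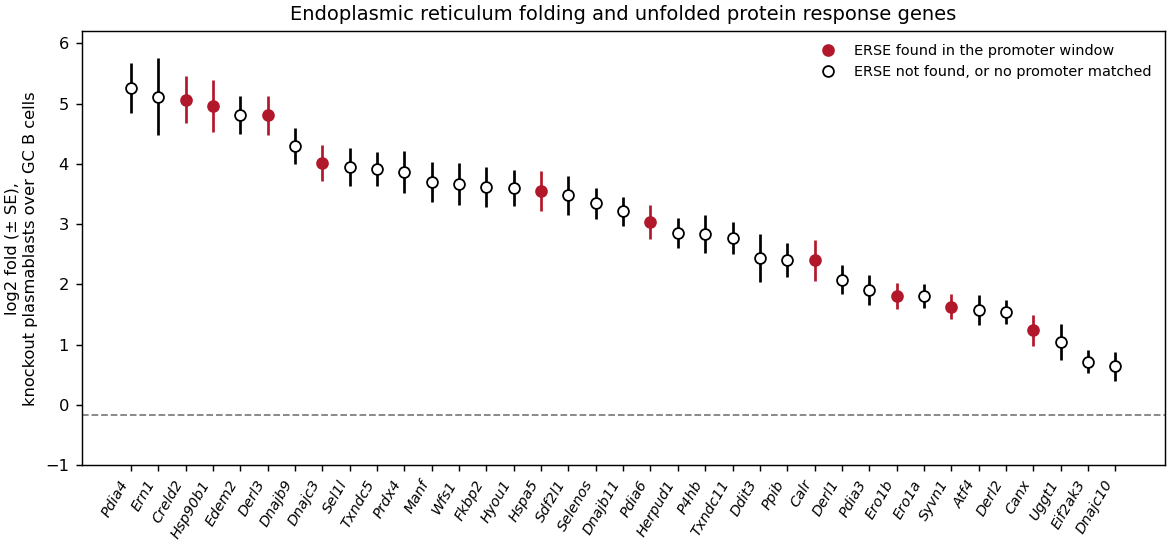
Log2 fold change (points) with its standard error (bars) of the 37 genes of endoplasmic reticulum folding and the unfolded protein response, knockout plasmablasts over knockout GC B cells, in order of fold. Red points have an ERSE in the 250 bases before the start and run from Creld2 (5.06) to Canx (1.24), over nearly the whole range of the list, and the dashed line is the median of all genes (-0.17).

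Downstream of folding, the route through membrane, glycosylation and vesicles was higher too. Of 60 genes 56 were higher and 0 lower (median log2 fold 2.18), and 52 were called without GC pool 1. That median was close to the 2.05 by which log2 folds fell without the scaling. Kdelr3 had the highest fold of the list (log2 fold 6.09), which was 5.48 without GC pool 1 and 6.99 without GC pool 2. Ssr4 and Sec24d led among members whose fold moved less when 1 pool was left out. Ssr4, a subunit of the translocon-associated complex, had 1144 and 1611 CPM in plasmablasts, against 53.2 and 76.2 CPM in GC B cells (log2 fold 4.41, SE 0.33, edgeR adjusted p = 1.05e-06). Sec24d, a cargo adaptor of the COPII coat, had 348 and 249 CPM in plasmablasts, against 19.2 and 20.6 CPM in GC B cells (log2 fold 3.91, SE 0.38, edgeR adjusted p = 6.03e-06). Mcfd2 and Lman1, the partners that carry glycoproteins out of the endoplasmic reticulum, had log2 folds of 3.66 and 3.02 (edgeR adjusted p = 4.67e-07 and 2.94e-06). Coat proteins of the reverse route rose less, with log2 folds of 1.35 for Copa and 0.76 for Copz1. Sec61g, Stt3b, Sar1b and Golgb1 did not pass.

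Genes of the integrated stress response and amino acid supply were higher in 18 of 24 cases and lower in 1 (median log2 fold 1.55, below 0 without the scaling). Slc3a2, the heavy chain of the large amino acid transporters, had 2434 and 2711 CPM in plasmablasts, against 69.9 and 78.0 CPM in GC B cells (log2 fold 5.12, SE 0.27, edgeR adjusted p = 1.86e-07). Atf5 had 128 and 153 CPM in plasmablasts, against 8.52 and 10.2 CPM in GC B cells (log2 fold 3.90, SE 0.25, edgeR adjusted p = 4.34e-07), and Atf4, the central factor of the response, had 222 and 301 CPM in plasmablasts, against 98.3 and 77.3 CPM in GC B cells (log2 fold 1.57, SE 0.25, edgeR adjusted p = 2.73e-04). The gene called lower was Psat1, an enzyme of serine synthesis (log2 fold -1.71, SE 0.34, edgeR adjusted p = 0.00137). Autophagy genes were higher in 12 of 21 cases and lower in 1 (median log2 fold 0.93, below 0 without the scaling). Wipi1, which binds the membrane of forming autophagosomes, was nearly absent from GC B cells, with 81.2 and 78.9 CPM in plasmablasts, against 0.174 and 0.274 CPM in GC B cells (log2 fold 8.46, SE 0.33, edgeR adjusted p = 1.49e-07). Tfeb, the transcription factor of lysosomal genes, was lower (21.2 and 19.3 CPM in plasmablasts, against 102 and 106 CPM in GC B cells; log2 fold -2.36, SE 0.19, edgeR adjusted p = 1.88e-06). Proteasome subunits moved little, with 5 of 30 lower, 25 not passing and a median log2 fold of -0.33. Without GC pool 1, 9 were lower, without GC pool 2, 2 were, and without plasmablast pool 1, 1 was.

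Antigen receptor genes were lower in part. Of 31 genes of the antigen receptor and its signalling 19 were lower and 2 higher (median log2 fold -1.08). Cd22, an inhibitory coreceptor, had 4.28 and 5.85 CPM in plasmablasts, against 524 and 300.4 CPM in GC B cells (log2 fold -6.34, SE 0.40, edgeR adjusted p = 4.20e-07), and Cd72 fell by a like amount (log2 fold -6.32, edgeR adjusted p = 3.86e-07). The receptor chain Cd79a had 581 and 719 CPM in plasmablasts, against 521 and 678 CPM in GC B cells, with overlapping groups (log2 fold 0.12, SE 0.25, edgeR adjusted p = 0.719), and Btk, Blnk and Plcg2, the core of the proximal cascade, did not pass (log2 folds -0.21, 0.24 and -0.15). The genes called higher were Cd81, a tetraspanin gene, and Fcrla (log2 folds 1.37 and 1.48, edgeR adjusted p = 0.00132 and 1.38e-04).

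Antigen presentation on MHC class II was lower in 14 of 17 genes and higher in 1 (median log2 fold -2.45). H2-Oa, a chain of the peptide-loading modulator, had 0.779 and 1.38 CPM in plasmablasts, against 82.3 and 99.4 CPM in GC B cells (log2 fold -6.37, SE 0.32, edgeR adjusted p = 1.80e-07). The classical chain H2-Aa had 208 and 291 CPM in plasmablasts, against 1604 and 2159.5 CPM in GC B cells (log2 fold -2.91, SE 0.33, edgeR adjusted p = 1.87e-05), so transcripts of the presenting molecules remained in plasmablasts where those of Ciita, given above, had nearly gone. Cd74, the invariant chain, had 4918 and 7137 CPM in plasmablasts, against 7212 and 9134 CPM in GC B cells and did not pass (log2 fold -0.44, SE 0.32, edgeR adjusted p = 0.270). Ctss, a protease that trims it, was the gene called higher (988 and 1223 CPM in plasmablasts, against 208 and 264 CPM in GC B cells; log2 fold 2.23, SE 0.27, edgeR adjusted p = 3.58e-05).

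Cell cycle genes were lower in plasmablasts in both phases. All 33 genes of DNA replication and S phase were lower (median log2 fold -3.06), and so were all 34 of G2 and mitosis (median -3.39; 33 without GC pool 1), against 27.2% of all genes. Uhrf1, which couples DNA methylation to replication, had 6.23 and 7.00 CPM in plasmablasts, against 209 and 240.1 CPM in GC B cells (log2 fold -5.08, SE 0.23, edgeR adjusted p = 1.49e-07). Mcm5, a subunit of the replicative helicase, had 26.6 and 30.6 CPM in plasmablasts, against 509.6 and 684 CPM in GC B cells (log2 fold -4.38, SE 0.29, edgeR adjusted p = 4.89e-07). Kif23, a motor of cytokinesis, had 5.45 and 5.62 CPM in plasmablasts, against 123 and 103 CPM in GC B cells (log2 fold -4.35, SE 0.24, edgeR adjusted p = 2.27e-07), and Cdc20, an activator of the anaphase-promoting complex, had 15.2 and 23.3 CPM in plasmablasts, against 176 and 199.7 CPM in GC B cells (log2 fold -3.28, SE 0.25, edgeR adjusted p = 1.11e-06). Mki67, the proliferation antigen gene, was among the least changed, with 193 and 212 CPM in plasmablasts, against 936 and 399.6 CPM in GC B cells (log2 fold -1.72, SE 0.48, edgeR adjusted p = 0.0102). It remained the highest of the mitotic genes in plasmablasts, in CPM not divided by length. None of the 67 genes was at 0 in a plasmablast pool.

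Promoters of mitotic genes often hold a cell cycle genes homology region (CHR), TTTGAA on either strand, close to the start. It was found in the 250 bases before the start for 10 of 28 listed G2 and mitosis genes (35.7%) and 13.0% of all 9824, and CCAAT for 75.0% and 41.0%. Of genes lower by more than 2-fold 17.2% held the CHR, and of those higher 12.3%. The promoter windows of Cdc20 and of Cdk1, the mitotic kinase gene (9.60 and 22.4 CPM in plasmablasts, against 117 and 150.0 CPM in GC B cells; log2 fold -3.05, SE 0.36, edgeR adjusted p = 2.67e-05), are printed with the CHR in capitals, from RefSeq, build GRCm38.p6.
Cdc20 (chr4:118437344-118437593, minus strand): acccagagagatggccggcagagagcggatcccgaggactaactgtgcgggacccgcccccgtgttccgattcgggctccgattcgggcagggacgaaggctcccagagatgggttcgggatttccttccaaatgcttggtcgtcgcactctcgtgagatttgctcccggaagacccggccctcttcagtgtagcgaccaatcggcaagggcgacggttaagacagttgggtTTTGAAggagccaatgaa
Cdk1 (chr10:69352913-69353162, minus strand): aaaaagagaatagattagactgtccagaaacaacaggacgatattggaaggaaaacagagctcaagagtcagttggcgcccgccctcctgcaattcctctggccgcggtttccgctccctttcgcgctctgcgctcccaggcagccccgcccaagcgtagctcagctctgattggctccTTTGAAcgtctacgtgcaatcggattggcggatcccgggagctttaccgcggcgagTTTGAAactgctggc

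The regulators around the G1 phase were divided. Of 15 genes 7 were higher and 6 lower. Ccnd3, the D cyclin of GC B cells, had 28.0 and 28.8 CPM in plasmablasts, against 121 and 208 CPM in GC B cells (log2 fold -2.53, SE 0.27, edgeR adjusted p = 1.40e-05), while Ccnd2 had 163 and 169 CPM in plasmablasts, against 54.8 and 34.9 CPM in GC B cells (log2 fold 1.89, SE 0.25, edgeR adjusted p = 6.68e-05). The inhibitor genes Cdkn1b (p27) and Cdkn1a (p21) were higher (log2 folds 2.35 and 2.30, edgeR adjusted p = 1.82e-05 and 0.00130). Of the chromatin genes, Ezh2, the methyltransferase of the GC, had 15.4 and 20.5 CPM in plasmablasts, against 163 and 158 CPM in GC B cells (log2 fold -3.15, SE 0.21, edgeR adjusted p = 5.57e-07), its relative Ezh1 was higher (log2 fold 1.17, SE 0.21, edgeR adjusted p = 7.44e-04), and the maintenance methyltransferase gene Dnmt1 was lower (log2 fold -3.24, SE 0.28, edgeR adjusted p = 2.43e-06). Over the 19 polycomb and DNA methylation genes 4 were higher and 7 lower (21.1% and 36.8%, against 24.4% and 27.2% of all genes).

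Survival and positioning genes also went both ways. Of 16 BCL2 family genes 6 were higher and 6 lower (37.5% each, against 24.4% and 27.2% of all genes). Mcl1, on which plasma cells depend, had 639.7 and 584 CPM in plasmablasts, against 295 and 333 CPM in GC B cells (log2 fold 0.96, SE 0.22, edgeR adjusted p = 0.00329), and Bcl2a1b was lower (3.37 and 3.90 CPM in plasmablasts, against 18.5 and 26.0 CPM in GC B cells; log2 fold -2.61, SE 0.30, edgeR adjusted p = 2.07e-05), with reads that may be shared among its near copies. Of 27 homing genes 10 were higher and 8 lower (37.0% and 29.6%). Cxcr4, the receptor for the bone marrow chemokine CXCL12, had 162 and 206 CPM in plasmablasts, against 137 and 195 CPM in GC B cells, with overlapping groups (log2 fold 0.15, SE 0.25, edgeR adjusted p = 0.630). Selplg, the selectin ligand, had 86.0 and 170.2 CPM in plasmablasts, against 9.91 and 8.01 CPM in GC B cells (log2 fold 3.83, SE 0.37, edgeR adjusted p = 5.74e-06), and the integrin genes Itga4 and Itgal were higher (log2 folds 2.31 and 2.07, edgeR adjusted p = 4.61e-04 and 7.68e-05). The chemokine receptor genes Ccr10 and Ccr9, which guide plasma cells to mucosa, were near absent from GC B cells. Ccr10 had 9.99 and 10.9 CPM in plasmablasts, against 0.174 and 0.548 CPM in GC B cells, with a log2 fold of 4.88 (edgeR adjusted p = 4.59e-06) that was 5.85 without GC pool 2 and 4.24 without GC pool 1. Ccr9 had 7.79 and 4.59 CPM in plasmablasts, against 0.986 and 0.411 CPM in GC B cells, with a log2 fold of 3.11 (edgeR adjusted p = 2.84e-04) that was 3.89 without GC pool 1.

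Receptors for cytokines changed in 23 of 26 cases, 13 higher and 10 lower. Il21r, a receptor for a helper cytokine of the GC, had 6.88 and 6.89 CPM in plasmablasts, against 202 and 207 CPM in GC B cells (log2 fold -4.89, SE 0.21, edgeR adjusted p = 1.49e-07). Il4ra, another, had 8.44 and 6.77 CPM in plasmablasts, against 139.5 and 131 CPM in GC B cells (log2 fold -4.15, SE 0.21, edgeR adjusted p = 1.81e-07). Il6st, the shared signalling chain of a cytokine family, had 181 and 99.0 CPM in plasmablasts, against 9.45 and 5.96 CPM in GC B cells (log2 fold 4.17, SE 0.40, edgeR adjusted p = 5.75e-06), and Il13ra1 134 and 123 CPM in plasmablasts, against 2.49 and 2.26 CPM in GC B cells (log2 fold 5.75, SE 0.31, edgeR adjusted p = 2.27e-07). Within the receptors for the TNF ligands BAFF and APRIL, Tnfrsf17 and Tnfrsf13b (TACI) were higher and Tnfrsf13c, the BAFF receptor, was slightly lower (166 and 167 CPM in plasmablasts, against 274 and 292 CPM in GC B cells; log2 fold -0.76, SE 0.19, edgeR adjusted p = 0.00467).

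Genes of type 1 immunity and of the interferon response showed no common direction. Tbx21, which encodes T-bet, had 1.95 and 3.21 CPM in plasmablasts, against 20.1 and 13.5 CPM in GC B cells (log2 fold -2.69, SE 0.48, edgeR adjusted p = 5.82e-04). Of the 16 genes of the T-bet list 4 were higher (25.0%) and 5 lower (31.25%), close to the 24.4% and 27.2% of all genes. The highest fold of the list was that of the immunoglobulin gene Ighg2c (log2 fold 6.90), which rose with the other constant region genes. Cxcr3 was called higher (log2 fold 1.09, edgeR adjusted p = 0.0116) but not without plasmablast pool 2 (0.125) or GC pool 1 (0.0752). Of 25 interferon response genes 5 were higher, 3 lower and 17 did not pass, close to the shares over all genes on the higher side, and the median log2 fold was -0.24 (0.19 without GC pool 1). Ddx58, the RNA sensor RIG-I, had 125 and 105 CPM in plasmablasts, against 18.0 and 11.0 CPM in GC B cells (log2 fold 2.98, SE 0.28, edgeR adjusted p = 4.69e-06), and Zbp1, a nucleic acid sensor, had 125 and 185 CPM in plasmablasts, against 24.5 and 25.1 CPM in GC B cells (log2 fold 2.65, SE 0.23, edgeR adjusted p = 2.76e-06).

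Metabolic genes were mostly lower where they changed. Of 17 glycolysis genes 9 were lower and 1 higher. Ldha, which makes lactate, had 67.7 and 82.9 CPM in plasmablasts, against 309 and 466 CPM in GC B cells (log2 fold -2.36, SE 0.30, edgeR adjusted p = 4.99e-05). The gene called higher was Pdk1, which diverts pyruvate from mitochondria (log2 fold 1.25, SE 0.17, edgeR adjusted p = 8.69e-05). Of 24 genes of sterol and fatty acid synthesis 15 were lower and 2 higher (1 without any one of the 4 pools; median log2 fold -0.81), among them Hmgcs1, an early enzyme of the sterol pathway (23.4 and 19.9 CPM in plasmablasts, against 106 and 122 CPM in GC B cells; log2 fold -2.40, SE 0.24, edgeR adjusted p = 8.11e-06), and Scd1, a desaturase gene (log2 fold -2.38, SE 0.28, edgeR adjusted p = 2.91e-05). Among 22 genes of transcript elongation and processing 13 were lower and 4 higher. Hnrnpll, a splicing regulator of plasma cells, had 24.5 and 28.1 CPM in plasmablasts, against 0.986 and 0.959 CPM in GC B cells (log2 fold 4.75, SE 0.33, edgeR adjusted p = 6.73e-07), and Ell2, given above, rose beside it, while Ell3 had 0.908 and 1.38 CPM in plasmablasts, against 35.7 and 42.9 CPM in GC B cells (log2 fold -5.08, SE 0.35, edgeR adjusted p = 6.14e-07) and the cleavage factor gene Cpsf2 a log2 fold of -2.03. Mitochondrially encoded transcripts took 0.846 ± 0.140% of counts in plasmablasts, against 5.13 ± 0.420% in GC B cells (SD, n = 2 pools each), but after scaling 5 of 13 were lower and 8 did not pass (2 lower without plasmablast pool 2, and 3 without plasmablast pool 1 or GC pool 2).

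Several of the largest folds outside these lists were at genes nearly silent in one cell type. Fut1, a fucosyltransferase gene, had 103 and 94.7 CPM in plasmablasts, against 0.638 and 0.411 CPM in GC B cells (log2 fold 7.52, SE 0.38, edgeR adjusted p = 1.81e-07). Cspg5, a proteoglycan gene, had 18.9 and 24.9 CPM in plasmablasts, against 0.116 and 0.137 CPM in GC B cells, and Dsel had 24.7 and 19.2 CPM in plasmablasts, against 0.116 and 0.137 CPM in GC B cells (log2 folds 7.37 and 7.37, edgeR adjusted p = 5.05e-07 and 3.72e-07). Ackr4, a scavenger receptor for chemokines, had 3 counts over both plasmablast pools and 1252 over both GC pools, a ratio of scaled levels of 215 (95% exact interval 73.4 to 1045, for counting error only). For 5 of the 10 genes with the lowest folds no count was seen in plasmablasts, and 3 counts over the group were taken as the floor. They were at least 109-fold (Ifit1bl1), 53.3-fold (Hbb-bh1), 46.1-fold (Aif1l), 35.9-fold (Btnl1) and 13.6-fold (Lrrc32) lower there than in GC B cells. Of these Hbb-bh1, a globin gene, had GC pools as far apart as 6.49 and 13.6 CPM.

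The transition in the control mice gave nearly the same picture. There 3289 genes were higher (25.0%) and 3695 lower (28.1%) in plasmablasts. Of the genes higher in knockout plasmablasts 2930 were also higher in control plasmablasts, 91.5% of the knockout and 89.1% of the control list. For lower genes the overlap was 3166, 88.8% of the knockout and 85.7% of the control list, and 0 genes were called in opposite directions. A test of the difference itself, knockout transition minus control transition, called 1 of 13131 genes in edgeR (0.00762%), with 489 genes at an unadjusted p under 0.05. That gene was Faxc (chr4:21930906-22001461, gene ID 76132), which had 15.2 and 15.1 CPM in plasmablasts, against 1.39 and 1.57 CPM in GC B cells. Control pools had 48.1 and 35.4 CPM in plasmablasts and 0.140 and 0.0806 CPM in GC B cells. Since those GC values rest on 3 counts, its control ratio of 381 has a 95% interval from 130 to 1853 by counting error alone. The log2 folds were 3.35 in knockout and 8.46 in control cells, a difference of -5.10 (SE 0.54, edgeR adjusted p = 0.0145; from 8.16e-11 to 0.301 over the settings tried). Its role in B cells is not known well enough to be given. The call did not pass without knockout plasmablast pool 2 (0.0873), knockout GC pool 1 (0.0582) or 2 (0.0570), control plasmablast pool 1 (0.0665) or control GC pool 1 (0.199) or 2 (0.244).

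Knockout and control pools of one cell type and number share their dates, so the date can be taken out as a block, a fit added after the data were seen. That fit left 3 residual degrees of freedom. It called 71 genes (0.541%), with 8 differences above 0 (0.0609%) and 63 below (0.48%; 1016 genes at an unadjusted p under 0.05). With genes without a symbol left out, as the control GC libraries stand apart there, it called 4 above 0 and 62 below, and Faxc passed without the date as before (difference -5.10, edgeR adjusted p = 0.0136). Of the 63, 55 were called higher in knockout and 59 in control plasmablasts, so most are plasmablast genes with a smaller rise in the knockout. In 53 of the 63 both knockout GC pools lay above both control GC pools, against 13.8% of all tested genes. Both knockout plasmablast pools lay below both control plasmablast pools in 19 (11.6% of all genes) and above them in 9 (13.6% of all genes). The 63 were chosen by this same difference, so these counts describe them and test nothing. Bhlha15 shows the common form. It had 308 and 299 CPM in knockout and 328 and 329.7 CPM in control plasmablasts, against 5.33 and 6.44 CPM in knockout and 1.61 and 1.69 CPM in control GC B cells (difference -1.94, SE 0.22, edgeR adjusted p = 0.00216 with the date, 0.204 without). Hsp90b1, Creld2, Fkbp11 and Sec24d, of the secretory lists above, were called with differences of -1.67, -1.21, -2.95 and -1.45 (edgeR adjusted p = 0.0156, 0.0350, 0.0298 and 0.0139 with the date). Without the date they did not pass (edgeR adjusted p = 0.853, 0.9999, 0.490 and 0.958). Called with the date were also 11 immunoglobulin genes, among them Ighg1 (difference -1.65, edgeR adjusted p = 0.0441 with the date, 0.754 without). Ighg1 had 68846 and 80729 CPM in knockout against 293256 and 394495 CPM in control plasmablasts.

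Plasmablast transcripts were scarce in the GC pools of both genotypes. GC levels of Jchain, Igkc and Tnfrsf17 were 1.09%, 1.08% and 0.241% of the plasmablast level in knockout cells, and 0.872%, 0.800% and 0.502% in control cells. Other plasmablast genes had higher shares in knockout cells. The share restates the fold of the transition. Ly6c2, Fkbp11, Bhlha15 and Faxc were called for the difference with the date, so their higher shares follow from that call. Sdc1 stood at 0.633% in knockout and 0.248% in control cells, Ly6c2 at 0.586% and 0.213%, and Fkbp11 at 0.888% and 0.108%. For Bhlha15 the share was 1.94% in knockout and 0.502% in control cells, for Prdm1 7.32% and 1.77%, and for Faxc 9.78% and 0.264%. Of these genes the share was lower in knockout cells for Tnfrsf17 alone. Over the whole list of secretory markers the median share was 3.29% in knockout and 2.31% in control cells. It was 14.2% and 11.5% over the plasma cell factors, and 10.8% and 8.19% over the folding list. The part of stray plasmablasts in the difference was not tested.

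**Figure D5:**
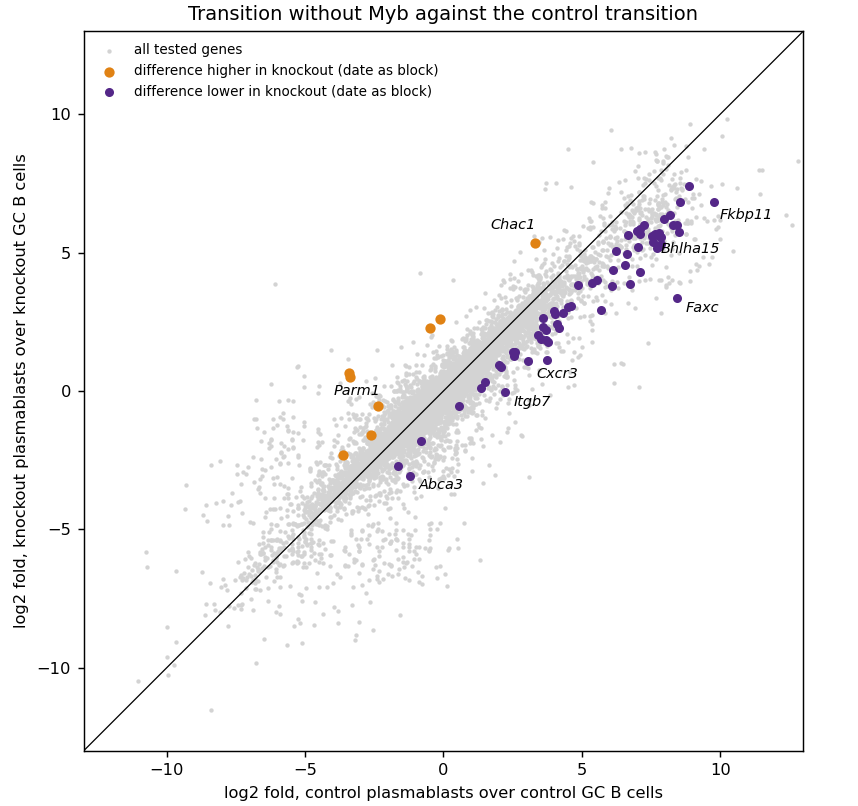
Log2 fold change of plasmablasts over GC B cells in knockout cells (vertical axis) and in control cells (horizontal axis) for 13131 genes in grey, with the line of equal folds. Genes whose difference passed with the date as a block are purple (63 below 0) or orange (8 above 0), and most purple points lie in the upper right, below the line.

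Itgb7 departed on the plasmablast side. It encodes the beta 7 integrin of gut homing and had 19.3 and 27.1 CPM in knockout and 111 and 132 CPM in control plasmablasts, against 30.8 and 16.8 CPM in knockout and 29.4 and 21.9 CPM in control GC B cells. The knockout plasmablast and GC pools overlapped, and the control ones did not. Its log2 fold was -0.04 in knockout and 2.24 in control cells (difference -2.26, SE 0.19, edgeR adjusted p = 5.05e-04 with the date, 0.204 without). Ccnd2, chosen after its values were seen, departed on both sides. It had 163 and 169 CPM in knockout and 299 and 285 CPM in control plasmablasts, against 54.8 and 34.9 CPM in knockout and 24.9 and 25.6 CPM in control GC B cells (difference -1.61, edgeR adjusted p = 0.00908 with the date, 0.354 without). Cd9, a tetraspanin gene, and Chst1, a sulfotransferase gene, were the other genes with the smallest p on the lower side and did not pass without the date (differences -2.01 and -1.90, edgeR adjusted p = 0.204 and 0.317; 0.00436 and 0.0623 with the date).

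On the upper side no gene passed without the date. The 5 smallest p belonged to Parm1, Fam3c, Lars2, Fam181a and Lck, with differences of 1.83, 1.29, 2.40, 5.11 and 1.25 and edgeR adjusted p from 0.357 to 0.574. Parm1 and Fam3c passed with the date (edgeR adjusted p = 0.0280 and 0.0354), as did Chac1, a stress-induced gene of glutathione breakdown (2.07, edgeR adjusted p = 0.0264). Fam181a rested on fewer than 1 CPM in every pool. Of the 8 genes above 0 with the date, 4 have no symbol here, and these hold the largest differences among the 8. Gene ID 19791 had 201 and 674 CPM in knockout and 155 and 349 CPM in control plasmablasts, against 274 and 285 CPM in knockout and 2712 and 2587 CPM in control GC B cells (difference 3.91, edgeR adjusted p = 1.82e-05 with the date, 0.204 without). Gene ID 100861531, the top gene of both control GC libraries at 4.51% and 3.71% of counts, had 2042 and 6439.9 CPM in knockout and 1778 and 3228 CPM in control plasmablasts, against 3109 and 2929 CPM in knockout and 27818 and 24785 CPM in control GC B cells (difference 3.72, edgeR adjusted p = 2.48e-04 with the date, 0.204 without). The control GC pools stand apart in both genes, and the knockout groups overlap. Lars2 had 2830 and 2400 CPM in knockout and 2649 and 1030 CPM in control plasmablasts, against 888 and 472 CPM in knockout and 2385 and 2653 CPM in control GC B cells. What sets the control GC libraries apart was not tested.

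Some lists leaned to one sign of the difference. Over all genes 6708 of 13131 estimates lay below 0 and 6423 above. Genes that change in the transition leaned too. Of 1714 genes higher by more than 2-fold in both genotypes, 1197 lay below 0. Of 1412 genes lower by more than 2-fold in both, 879 lay above 0. Lists of genes that mostly rise or fall are to be read against these counts. In the interferon list 24 of 25 lay below 0, with a median log2 fold of -0.24 in knockout and 0.66 in control cells, and 1 passed with the date. Irf1, an interferon-induced factor of the T-bet list chosen after its values were seen, had overlapping knockout groups. It had 76.3 and 100.1 CPM in knockout and 64.3 and 78.8 CPM in control plasmablasts, against 83.8 and 56.9 CPM in knockout and 30.2 and 20.6 CPM in control GC B cells (difference -1.17, edgeR adjusted p = 0.0133 with the date, 1 without). Among immunoglobulin genes 205 of 250 estimates lay below 0, with medians of 6.18 in knockout and 7.29 in control cells. The folding list had 31 of 37 below 0, the translocation and vesicle list 46 of 60, the secretory markers 18 of 22 and the mitochondrially encoded genes 13 of 13. Above 0 lay 31 of 34 in the G2 and mitosis list, 27 of 33 in the S phase list, 14 of 17 in the MHC class II list, 20 of 24 in the stress response and amino acid list and 16 of 21 in the autophagy list. List members vary together, so these counts carry no p.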

How the data were processed

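The libraries of 12 pools of sorted mouse B cells were deposited as raw counts per Entrez gene, which the authors made with featureCounts on build mm10 (per the submitters' processing notes). Neither the aligner nor the strand setting, nor any tool's version, is stated there. Gene length was deposited beside the counts. Overlapping, antisense and near-identical genes can share reads.

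Genes with at least 10 counts in enough libraries and 15 in all (filterByExpr) were kept, 13131 of 27179. All 12 libraries and 6 group means entered 1 quasi-likelihood fit with robust dispersion in edgeR 4.0.16 (R 4.3.3; limma 3.58.1, DESeq2 1.42.0 as alternatives), with TMM scaling, 6 residual degrees of freedom and Benjamini-Hochberg adjustment over all genes; the stricter call used glmTreat with a limit of 2-fold. The biological coefficient of variation was 0.221. Replicate pools differed by far more than sampling noise (chi-square per degree of freedom 87.6 in knockout plasmablasts, 29.9 in knockout GC B cells). TMM factors were 0.405 and 0.392 in knockout plasmablasts, against 1.73 and 1.58 in knockout GC B cells. Intervals and floors cover counting error at 95% only.

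The labels give knockout and control pools of the same cell type and number the same date. Their deviations from group means correlated across 9610 genes (r = 0.695 between plasmablast groups and 0.773 between GC groups), so the date served as a block for the difference.

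Members and lists were chosen with earlier results of these data known. Genes were named by fold among called genes of adequate level, by the largest folds within each list and by the smallest p of the difference; further list members were named after their values were seen. The fit was tested on simulated data with the same mean for a gene in every library, apart from a small set changed in knockout plasmablasts. Those data lack the immunoglobulin excess of plasmablasts, so that test does not check the scaling. Motifs were searched in RefSeq promoters of GRCm38.p6, which matched 9824 tested genes by gene ID or symbol, 250 bases before each start. Protein sequences were not used here. Some genes that the naming rule selects are not reported here.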

Additional observations from a re-analysis of the deposited data

Results flagged for a closer look

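The difference between the knockout and the control transition was singled out for Faxc by the test of that difference itself. Its log2 fold of plasmablasts over GC B cells was 3.35 in knockout and 8.46 in control cells, a difference of -5.10 (SE 0.54, edgeR adjusted p = 0.0145, 2 pools a group). Both knockout plasmablast pools lay below both control plasmablast pools, and both knockout GC pools lay above both control GC pools.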

How the results depend on the processing

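The counts of genes in knockout plasmablasts over knockout GC B cells depend on scaling. On library totals with no factor, 884 genes were higher and 10394 lower, and 620 and 9061 by more than 2-fold. There 20 of 172 named genes had a log2 fold below 0 in place of one above it, namely Bcl2l1 (-0.65), Bmi1 (-0.21), Ccnd2 (-0.18), Cd68 (-0.094), Cd81 (-0.68), Cxcr3 (-0.97), Cxcr4 (-1.89), Ezh1 (-0.89), Jarid2 (-0.74), Nsdhl (-1.46), Satb1 (-0.89), Stat4 (-1.38), Tcf4 (-1.33), Cbx8 (-0.89), Fcrla (-0.57), Eaf2 (-1.08), Bbc3 (-1.04), Bmf (-0.75), Pdk1 (-0.80) and Scap (-1.42), so for these the sign rests on the scaling. Centred on the median gene, a version added after the data were seen, the same totals gave 3202 higher and 3462 lower. DESeq2 called 1048 genes lower by more than 2-fold. Leaving out 1 pool gave 2715 to 2896 higher and 2803 to 3168 lower, and 1600 to 1749 and 1346 to 1493 by more than 2-fold. Over all 15 alternatives 37 of the 172 lost a call in at least 1, and no called gene changed sign in any but the unscaled totals. The difference between transitions gave 0 higher and 1 lower gene, but 13 and 123 with no filter on low counts, 8 and 37 in DESeq2, 4 and 25 with the replicate block, and 8 and 63 with the date as a replicate block, chosen after the data were seen. With genes without a symbol left out as well, also chosen after the data were seen, the date block gave 4 and 62. The difference gave 0 lower in limma-voom and in the Myb experiment alone. Leaving out 1 pool gave 0 to 2 higher and 0 to 1 lower. The cause was not tested. Knockout plasmablast and GC pools share only a number (r = 0.451 between same-numbered deviations; 0.330 in control cells). Depth limits genes near silent in one cell type, whose folds are bounds or wide ratios.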
